A study of Arabidopsis thaliana with 6 samples.

Results

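The genes described here are those whose root signal was raised in plants that overexpress the transcription factor RSL4 while the rsl4-1 mutant stayed near wild type. They were chosen from the measured values by a rule with 4 numeric conditions. Both 35S::RSL4 arrays had to lie above the other 4 arrays, the mean log2 difference of 35S::RSL4 minus Col-0 had to be at least 0.7, that of rsl4-1 minus Col-0 had to lie between -0.25 and 0.25, and the mean signal in 35S::RSL4 had to be at least 40. Of 22746 probe sets, 43 met these conditions. Of these, 9 were left out by name, because they belong to gene families or chromosome stretches that the rule sets aside, and 34 remained (0.149% of all). The annotation used here lists no gene for 17 of the 34, so these could not be screened by family or by locus and may still hold genes of the families and stretches set aside. Each probe set measures 1 transcript or a few similar ones.

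The RSL4 protein, of the basic helix-loop-helix class, drives the elongation of root hairs, the tubular outgrowths through which root epidermal cells take up water and nutrients. A growing hair adds wall and membrane at its tip, and this growth draws on secreted wall proteins, peptide signals, transporters and reactive oxygen. Loss of RSL4 leaves short hairs, and strong expression of RSL4 gives long ones.

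Total RNA from seedling roots at growth stage 3.20 was hybridised to single-colour ATH1 arrays in 3 genotypes of 2 arrays each. The 35S::RSL4 plants carry RSL4 under the cauliflower mosaic virus 35S promoter, which is active in most plant cells and not only in hair cells. The rsl4-1 plants carry a mutant allele of RSL4, and Col-0 is the wild type and the genetic background of all 3 genotypes. All plants grew upright on plates at 25 °C with 1% sucrose and 0.5% phytagel at pH 5.7 in constant light. The labels enter a T-DNA mutation not only under rsl4-1 but under 35S::RSL4 as well, so the genotypes are taken from the sample titles. A first note gives 2 days of cold for Col-0 seeds and 4 days for those of 35S::RSL4 and rsl4-1, while the growth note gives 4 days for all 3. The labels do not say how many plants or independent lines each sample holds, nor whether the 2 samples of a genotype were grown separately, so the spread between them may be technical. No probe set was matched to RSL4 here, and the labels were not checked by its level. RNA came from whole roots, where fewer cells of a type and less RNA per cell cannot be told apart.

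The unit of the signal is the scaled MAS5 unit, and every array had the same trimmed mean of 100.01. Among 14170 probe sets bright enough to test, 35S::RSL4 was above Col-0 in 480 (3.39%) and below it in 408 (2.88%) by limma at an adjusted p below 0.05, so that 54.1% of the calls were higher. Centring each array on its median moved the median difference over these probe sets from -0.06 to 0.05 and gave 889 higher and 233 lower, or 79.2% higher. Markers fixed for endodermis, root cap, vasculature, meristem and epidermal patterning could not be read, since the annotation used here lists none of them as a single-gene probe set. The identity of the tissue was therefore checked from shoot markers alone, of which the annotation lists 2 of 8, RCA and LHCB4.1, as single-gene probe sets. Their summed signal was 257 and 251 in 35S::RSL4, 259 and 258 in rsl4-1, and 387 and 324 in Col-0. This sum was lower in both lines than in Col-0. The log2 difference of 35S::RSL4 minus Col-0 was -0.70 for LHCB4.1 (limma adjusted p = 0.0093) and -0.23 for RCA (limma adjusted p = 0.39). RCA alone had 122 and 139 in rsl4-1 and 168 and 136 in Col-0, so these arrays overlapped. The part of this shoot marker difference in the values below was not tested.

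The rule decides the pattern of the members, so their differences are given as a description without a test. The median log2 difference of 35S::RSL4 minus Col-0 over the 34 members was 0.82 (lowest 0.70, highest 1.53), against -0.06 over all 14170 probe sets tested. That of 35S::RSL4 minus rsl4-1 was 0.76, against -0.04. The lowest was 0.49, and the highest was 1.49 apart from AT4G37220, whose rsl4-1 and Col-0 arrays were too dim for more than a bound. A 2-fold difference from Col-0 was reached by 3 of the 34. The members' signals covered a wide span, with mean signals in 35S::RSL4 from 42.8 to 1587. All 34 members passed the filter on dim probe sets, which the rule's minimum signal and order of arrays nearly ensured. AT4G37220 passed it through its 35S::RSL4 arrays alone. In the fit across all probe sets 31 of the 34 were called higher than Col-0 against 3.39% of all probe sets, and 27 were called higher than rsl4-1 against 3.19%. By the rule none could be lower, while 2.88% of all probe sets were called lower than Col-0 and 2.27% lower than rsl4-1. Nothing is read from these shares, because the rule used both contrasts. The 31 became 13 when Col-0 replicate 1 was left out and 17 when 35S::RSL4 replicate 2 was. The 27 calls against rsl4-1 became 16 or 13 without 35S::RSL4 replicate 1 or 2, and 17 or 12 without rsl4-1 replicate 1 or 2.

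**Figure D1:**
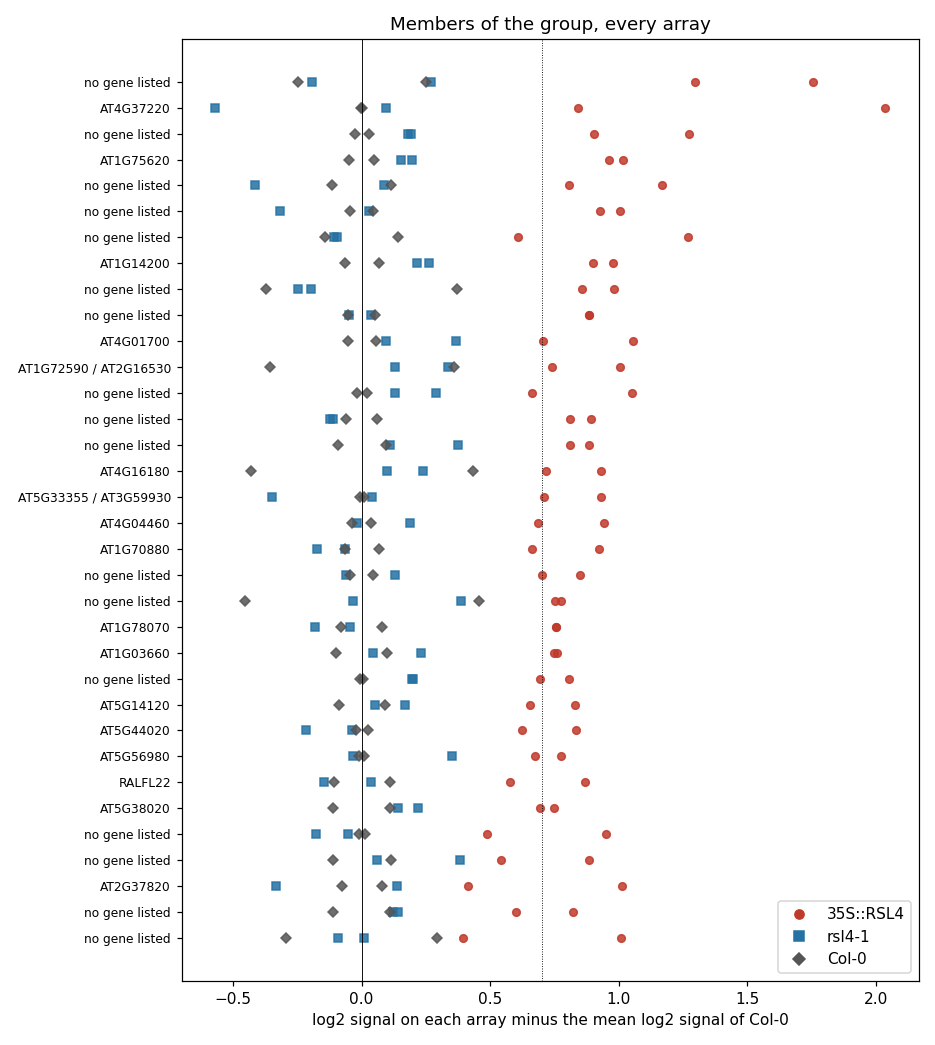
Log2 signal of every member on each of the 6 arrays, minus the mean log2 signal of Col-0, with members ordered from the largest to the smallest difference of 35S::RSL4 minus Col-0. Circles are 35S::RSL4, squares rsl4-1 and diamonds Col-0, and the dotted line is at 0.7. The 35S::RSL4 points lie to the right of all others in every row by the rule, and the 2 points of AT4G37220 lie farthest apart.

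The members did not share one high array. The higher of the 2 35S::RSL4 signals was on replicate 1 for 17 members and on replicate 2 for 17. The median spread between the 2 arrays of a genotype was 0.22 on the log2 scale in 35S::RSL4, 0.17 in rsl4-1 and 0.14 in Col-0 for the members, against 0.18, 0.16 and 0.15 over all probe sets tested. The gap between the lower 35S::RSL4 array and the highest of the other 4 ranged from 0.10 to 1.03, with a median of 0.48, and exceeded 0.5 in 15 members. The plot of every member on each array shows these gaps. The rsl4-1 mean was above Col-0 in 19 members and below it in 15. The SE of a log2 difference between 2 genotypes was 0.12 to 0.33 for the members, with a median of 0.17, so the window of 0.25 on each side of Col-0 is of the same order. It does not show that rsl4-1 and Col-0 were equal.

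The annotation used here gave 1 gene for 15 members and 2 genes for 2 members, and did not list the other 17. The named genes are taken up by role, beginning with the secreted and wall-related proteins.

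RALFL22 (AT3G05490) encodes a rapid alkalinization factor, one of the small secreted peptides that bind receptor kinases of the FERONIA family and leucine-rich repeat extensins in the wall. The peptide is known to take part in wall assembly in root hairs. Its signal was 913 and 1118 in 35S::RSL4, 553 and 628 in rsl4-1, and 660 and 568 in Col-0. Both 35S::RSL4 arrays stood clear of the other 4, which overlapped among themselves. The mean was 1015 ± 145 in 35S::RSL4, against 614 ± 65.3 in Col-0 (SD, n = 2), a log2 difference of 0.72. On that scale rsl4-1 lay 0.05 below Col-0. RALFL22 no longer met the numeric conditions under quantile normalization, or without 35S::RSL4 replicate 2 or Col-0 replicate 2.

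AT1G75620 encodes a protein related to glyoxal oxidases, copper enzymes that release hydrogen peroxide outside the cell. Its signal was 54.4 and 56.5 in 35S::RSL4, 31.1 and 32.0 in rsl4-1, and 27.0 and 28.9 in Col-0. The arrays of each genotype lay close together, and the log2 difference of 35S::RSL4 minus Col-0 was 0.99, near 2-fold. It was the only named member that met the numeric conditions under both other scalings and without each array in turn.

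AT4G01700 encodes a family 19 chitinase, an enzyme that cuts fungal cell wall chitin. Its signal was 65.4 and 83.5 in 35S::RSL4, 51.8 and 42.9 in rsl4-1, and 41.7 and 38.7 in Col-0. Both rsl4-1 arrays were above both Col-0 arrays, and the log2 difference of rsl4-1 minus Col-0 of 0.23 lies just inside the window. Under both other scalings, and without rsl4-1 replicate 2 or Col-0 replicate 1, AT4G01700 no longer met the numeric conditions.

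A probe set that can bind AT5G33355 and AT3G59930, a pair of genes for small secreted defensin-like peptides, had signals of 357 and 306 in 35S::RSL4, 193 and 147 in rsl4-1, and 188 and 186 in Col-0. The log2 difference of 35S::RSL4 minus Col-0 was 0.82. Which of the 2 genes gave the signal cannot be read from the array.

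A second group acts in the vacuole, in membranes or in transport. AT4G04460 encodes the aspartic protease PASPA3, which has a saposin-like insert and is known as a marker of developmental cell death in root cap and xylem. Its signal was 174 and 208 in 35S::RSL4, 123 and 107 in rsl4-1, and 111 and 105 in Col-0. The log2 difference of 35S::RSL4 minus Col-0 was 0.81 and that of rsl4-1 minus Col-0 was 0.08.

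AT5G44020 encodes a protein of the plant acid phosphatase class B, the family of the vegetative storage proteins. Its signal was 1472 and 1701 in 35S::RSL4, 822 and 930 in rsl4-1, and 940 and 970 in Col-0. The means were 1587 ± 161 in 35S::RSL4 and 955 ± 21.6 in Col-0 (SD, n = 2), and the rsl4-1 arrays were the lowest of the 6. On the log2 scale 35S::RSL4 was 0.73 above Col-0 and 0.86 above rsl4-1.

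AT5G14120 encodes a nodulin-like protein of the major facilitator superfamily of membrane transporters. Its signal was 958 and 849 in 35S::RSL4, 607 and 559 in rsl4-1, and 507 and 574 in Col-0. The rsl4-1 and Col-0 arrays overlapped, and the log2 difference of 35S::RSL4 minus Col-0 was 0.74. The numeric conditions were lost under quantile normalization, and without 35S::RSL4 replicate 1 or Col-0 replicate 1.

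AT4G37220 encodes a membrane protein of the cold-acclimation COR413 family. Its signal was 35.6 and 81.5 in 35S::RSL4, 21.2 and 13.4 in rsl4-1, and 19.9 and 19.9 in Col-0. Its measured log2 difference from Col-0 was 1.44 and that from rsl4-1 was 1.68, and the 2 35S::RSL4 arrays were 1.19 apart, the widest such spread of the 34. Both Col-0 and both rsl4-1 arrays were below the 40th percentile of their array, so these differences are uncertain and the fold is given as a bound. 35S::RSL4 was at least 2.42-fold above Col-0 and at least 2.48-fold above rsl4-1. The numeric conditions were no longer met without 35S::RSL4 replicate 2 or without rsl4-1 replicate 1.

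A probe set that can bind AT1G72590 and AT2G16530, which encode the polyprenol reductases that make dolichol for protein glycosylation, had signals of 51.3 and 42.7 in 35S::RSL4, 32.3 and 27.9 in rsl4-1, and 19.9 and 32.7 in Col-0. The 2 Col-0 arrays were 0.72 apart on the log2 scale and the 2 35S::RSL4 arrays 0.26, beside a log2 difference of 35S::RSL4 minus Col-0 of 0.87. This probe set met the numeric conditions under only 3 of 8 settings, and lost them without either Col-0 array, without rsl4-1 replicate 2 and under both other scalings.

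**Figure D2:**
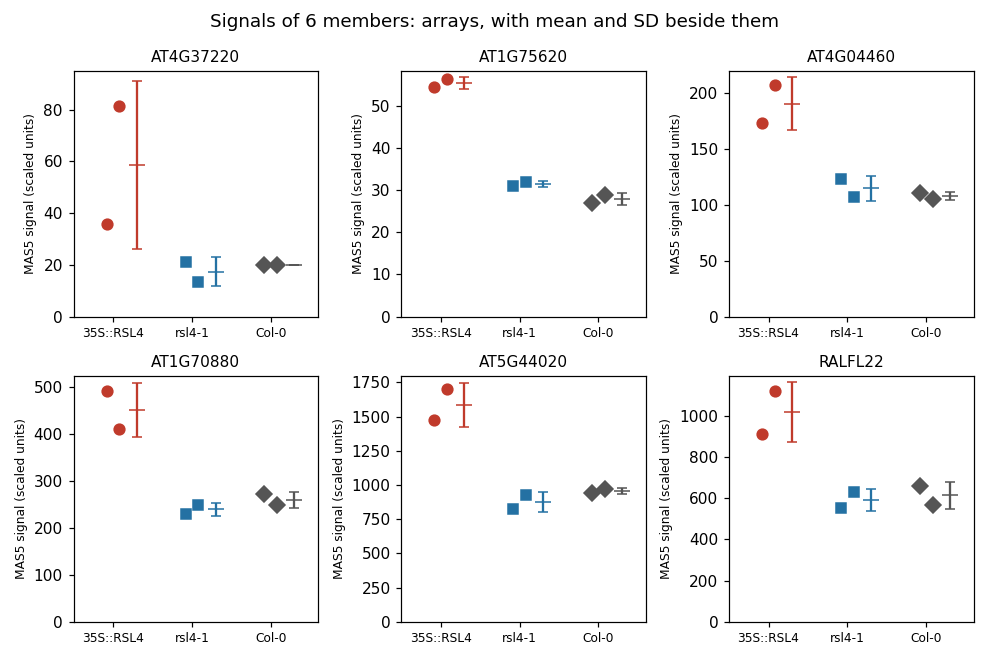
MAS5 signal, in scaled units on a linear axis from 0, of 6 named members. Points are the 2 arrays of 35S::RSL4, rsl4-1 and Col-0 from left to right, with the mean and SD of each genotype beside them. The AT1G75620 arrays of 35S::RSL4 lie close together at 54.4 and 56.5, and those of AT4G37220 lie apart at 35.6 and 81.5.

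Small-molecule metabolism and binding were represented by 2 members. AT1G70880 encodes a protein of the major latex protein and Bet v 1-like family, whose members bind hydrophobic ligands. Its signal was 492 and 410.2 in 35S::RSL4, 229.8 and 248 in rsl4-1, and 271.5 and 248 in Col-0. The log2 difference was 0.79 from Col-0 and 0.91 from rsl4-1.

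AT5G38020 encodes a SABATH methyltransferase, a family that adds methyl groups to plant hormones and other small acids. Its signal was 556 and 576 in 35S::RSL4, 399.7 and 379 in rsl4-1, and 318 and 371 in Col-0. Both rsl4-1 arrays were above both Col-0 arrays, with log2 differences from Col-0 of 0.72 for 35S::RSL4 and 0.18 for rsl4-1. AT5G38020 no longer met the numeric conditions under quantile normalization, without 35S::RSL4 replicate 2, or without either Col-0 array.

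Of the regulatory proteins, AT1G14200 encodes SNIPER1, a RING-type ubiquitin ligase known to limit the amount of NLR immune receptors. Its signal was 51.8 and 54.8 in 35S::RSL4, 33.3 and 32.3 in rsl4-1, and 29.1 and 26.5 in Col-0. The 3 genotypes did not overlap, and the log2 difference of rsl4-1 minus Col-0, 0.24, is at the edge of the window. Under quantile normalization, under median centring, and without rsl4-1 replicate 2 or Col-0 replicate 1, the gene no longer met the numeric conditions.

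AT1G78070 encodes a WD40 repeat protein. Its signal was 50.9 and 50.9 in 35S::RSL4, 29.2 and 26.6 in rsl4-1, and 31.8 and 28.5 in Col-0. The 2 35S::RSL4 arrays were nearly equal, and the log2 difference from Col-0 was 0.76.

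AT1G03660, annotated as an ankyrin repeat protein, behaved alike, with 80.1 and 79.4 in 35S::RSL4, 48.7 and 55.5 in rsl4-1, and 44.2 and 50.6 in Col-0. Its log2 difference from Col-0 was 0.75. AT5G56980, given here without a role, had 200.4 and 187 in 35S::RSL4, 149 and 114 in rsl4-1, and 118 and 116 in Col-0. One of its rsl4-1 arrays lay below both Col-0 arrays and the other lay between Col-0 and 35S::RSL4.

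AT2G37820 encodes a protein with cysteine- and histidine-rich C1 domains. Its signal was 52.2 and 34.5 in 35S::RSL4, 28.5 and 20.5 in rsl4-1, and 27.3 and 24.5 in Col-0. The lower 35S::RSL4 array lay only 0.28 above the highest other array on the log2 scale. It was the only named member that did not pass the fit against Col-0. Without 35S::RSL4 replicate 1, rsl4-1 replicate 1 or Col-0 replicate 2, AT2G37820 no longer met the numeric conditions.

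AT4G16180, given here without a role, is the only named member with a second probe set of 1 gene, which the rule did not use. The member probe set had 74.5 and 64.2 in 35S::RSL4, 41.9 and 46.1 in rsl4-1, and 28.9 and 52.7 in Col-0, a log2 difference of 0.82 from Col-0. The second probe set had 191 and 168 in 35S::RSL4, 178.5 and 176 in rsl4-1, and 163 and 168 in Col-0, a log2 difference of 0.11 (limma adjusted p = 0.67). The genotypes overlapped on the second probe set, so it did not show the difference of the first. The 2 Col-0 arrays of the member probe set were 0.86 apart on the log2 scale, and the numeric conditions were not met without either of them.

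The 17 members without a listed gene had log2 differences of 35S::RSL4 minus Col-0 from 0.70 to 1.53, with a median of 0.85, against a median of 0.76 for the 15 with 1 gene. The probe set 263046_at had the largest difference of all members, 1.53, with signals of 104 and 75.6 in 35S::RSL4, 37.1 and 26.9 in rsl4-1, and 36.6 and 25.9 in Col-0. The probe set 266995_at had 318 and 411 in 35S::RSL4, 193 and 194 in rsl4-1, and 167 and 173 in Col-0, a log2 difference of 1.09. Both stood clear of the other arrays by more than 0.7 on the log2 scale.

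At the edge of the threshold of 0.7, the members just inside were AT2G37820, an unlisted probe set with 1386 and 1616 in 35S::RSL4 and one with 61.5 and 40.2. Their log2 differences were 0.713, 0.712 and 0.70. Just outside were AT1G02360 at 0.698, AT2G43880 at 0.695 and AT3G14200 at 0.693, which met every other condition. At the window for rsl4-1 the nearest probe set inside was at 0.244 from Col-0 and the nearest outside at 0.256. At the minimum signal of 40 the nearest inside had a mean of 42.8 in 35S::RSL4 and the nearest outside, TBL34, one of 38.4. Nothing in the values separates the members from their neighbours at any of these edges.

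The condition on rsl4-1 removed most of the genes raised in 35S::RSL4. Apart from the families and stretches left out by name, 159 probe sets met the other conditions. Unlisted probe sets could not be screened by family or locus, so these counts may still include such genes. In 69 of them (43.4%) rsl4-1 was more than 0.25 above Col-0, in 56 (35.2%) it was more than 0.25 below, and in the 34 described here (21.4%) it was within 0.25. The plot of the 2 differences shows the members as a slice of a continuous cloud. Both differences are taken against the same Col-0 arrays.

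**Figure D3:**
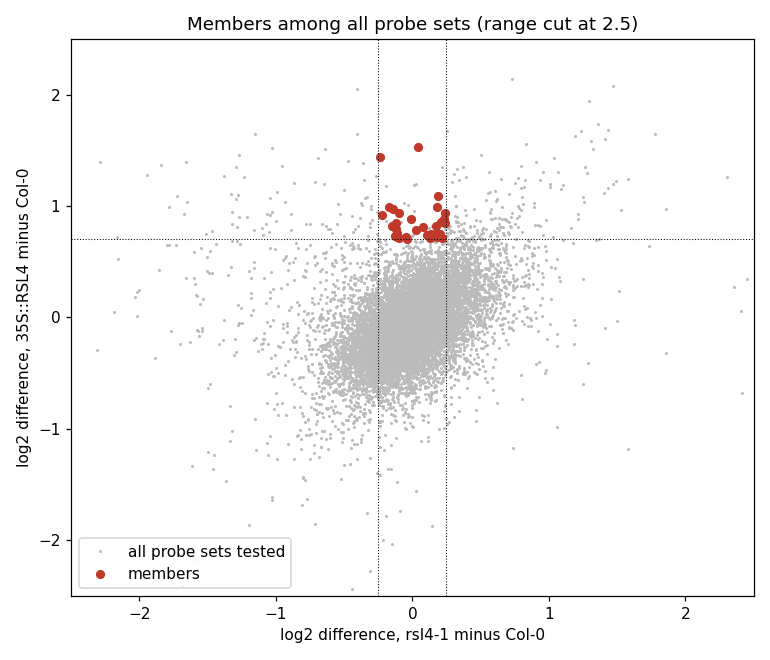
Log2 difference of 35S::RSL4 minus Col-0 (vertical) against that of rsl4-1 minus Col-0 (horizontal) for the 14170 probe sets tested, in grey, and the 34 members, in red. Dotted lines mark 0.7 and the window from -0.25 to 0.25, and probe sets beyond 2.5 on either axis are not drawn. The members fill the upper middle cell without a gap to the points around them.

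The 9 probe sets that met the numeric conditions and were left out by name had the same pattern by the same rule. They were the sugar transporter genes SWEET2 and SWEET16, the class III peroxidase genes AT5G17820 and AT5G66390, the CAP gene AT1G50060, AT1G26800 and AT1G19900 on the chromosome 1 stretch, and AT3G46700 and AT3G45700 on the chromosome 3 stretch. AT1G26800 encodes SNIPER2, a relative of SNIPER1, and had 156 and 142 in 35S::RSL4, 67.3 and 64.9 in rsl4-1, and 58.9 and 71.7 in Col-0. AT1G19900 encodes a second glyoxal oxidase-related protein and had 94.7 and 144 in 35S::RSL4, 76.0 and 77.6 in rsl4-1, and 76.9 and 61.6 in Col-0. Each of these 2 genes belongs to the family of a member. The same numeric conditions picked them and the members, so nothing is read from the pairing.

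Relatives of the members were examined in 10 families, which were chosen because a member belongs to them and so form no independent list. Families of other named members, such as the WD40, ankyrin repeat and C1-domain proteins, were not examined. Of 37 relatives that were tested and are not members, 11 (29.7%) had both 35S::RSL4 arrays above the other 4, against 10.4% of all probe sets tested. Their median log2 difference of 35S::RSL4 minus Col-0 was 0.19, against -0.06, and 7 (18.9%) were called higher, against 3.39%. Of these 7 calls, those of AT1G26800 and AT1G14960 held under every alternative that was run, and each of the others ended under at least 1. Without those left out by name, 8 of 33 (24.2%) had both 35S::RSL4 arrays above the rest, the median was 0.11, and 5 (15.2%) were called higher. The 7 calls include AT1G26800 and AT1G19900, which met the numeric conditions of the rule, so nothing is read from those 2.

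Among the family 19 chitinases, 2 relatives were called higher than Col-0. AT1G02360 had 528 and 541 in 35S::RSL4, 445 and 329 in rsl4-1, and 342 and 317 in Col-0, and missed the threshold of 0.7 by the third decimal (limma adjusted p = 0.0092). AT2G43610 had 496 and 640.0 in 35S::RSL4, 457 and 466 in rsl4-1, and 362 and 306 in Col-0, with log2 differences from Col-0 of 0.76 for 35S::RSL4 (limma adjusted p = 0.0047) and 0.47 for rsl4-1. The call of AT1G02360 ended without 35S::RSL4 replicate 2, Col-0 replicate 1 or Col-0 replicate 2 (adjusted p = 0.071, 0.059 and 0.082), and with no intensity trend in the fit (adjusted p = 0.055). The call of AT2G43610 ended without 35S::RSL4 replicate 2 or Col-0 replicate 2 (adjusted p = 0.071 and 0.075). Over the 5 tested chitinases that are not members the median log2 difference of 35S::RSL4 minus Col-0 was 0.51. In all 5 the rsl4-1 mean was above Col-0 too, by 0.14 to 1.08. AT2G43590 was highest in rsl4-1, with means of 482 in 35S::RSL4, 812 in rsl4-1 and 384 in Col-0.

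In the families of AT1G70880 and AT5G14120, 1 relative each was called higher than Col-0. AT1G14960, of the same family as AT1G70880, had 1728 and 1619 in 35S::RSL4, 1577 and 1268 in rsl4-1, and 972 and 1004 in Col-0 (log2 difference of 35S::RSL4 minus Col-0 0.76, limma adjusted p = 0.0017). Its rsl4-1 arrays were also above Col-0, by 0.52. AT2G39210, a major facilitator gene like AT5G14120, had 416 and 478 in 35S::RSL4, 358 and 294 in rsl4-1, and 254 and 270.5 in Col-0 (0.77, limma adjusted p = 0.0037). Its rsl4-1 mean was 0.31 above Col-0 on the log2 scale. The call of AT2G39210 ended without 35S::RSL4 replicate 2 or Col-0 replicate 1. APA1, an aspartic protease gene like AT4G04460, had 2271 and 2468 in 35S::RSL4, 2183 and 2040 in rsl4-1, and 1888 and 1657 in Col-0. Its log2 difference of 35S::RSL4 minus Col-0 was 0.42 (limma adjusted p = 0.039). The call of APA1 ended with the replicate block in the fit and with only the 2 genotypes compared (limma adjusted p = 0.054 and 0.056). It also ended with no filter and with no intensity trend (limma adjusted p = 0.18 and 0.14). Leaving out any single array ended it as well, with log2 differences of 0.33 to 0.51.

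RALF-like peptides were taken by symbols that start with RALFL, so any under other symbols were not examined. The annotation gave 11 of them a single-gene probe set, some too dim to test. None of those tested other than RALFL22 was called against Col-0. Of the 6 tested beside RALFL22, RALFL33 had the highest log2 difference of 35S::RSL4 minus Col-0, 0.37 (limma adjusted p = 0.13), and RALFL34 the lowest, -0.48 (limma adjusted p = 0.087). RALFL33 had 327 and 272 in 35S::RSL4, 251 and 277 in rsl4-1, and 237 and 226 in Col-0, and its 35S::RSL4 and rsl4-1 arrays overlapped. RALFL34 had 124 and 154 in 35S::RSL4, 201.4 and 254 in rsl4-1, and 209 and 178 in Col-0, with both 35S::RSL4 arrays the lowest of the 6 arrays. The 4 tested acid phosphatase class B relatives of AT5G44020 had a median of 0.13 and none had both 35S::RSL4 arrays above the rest.

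**Figure D4:**
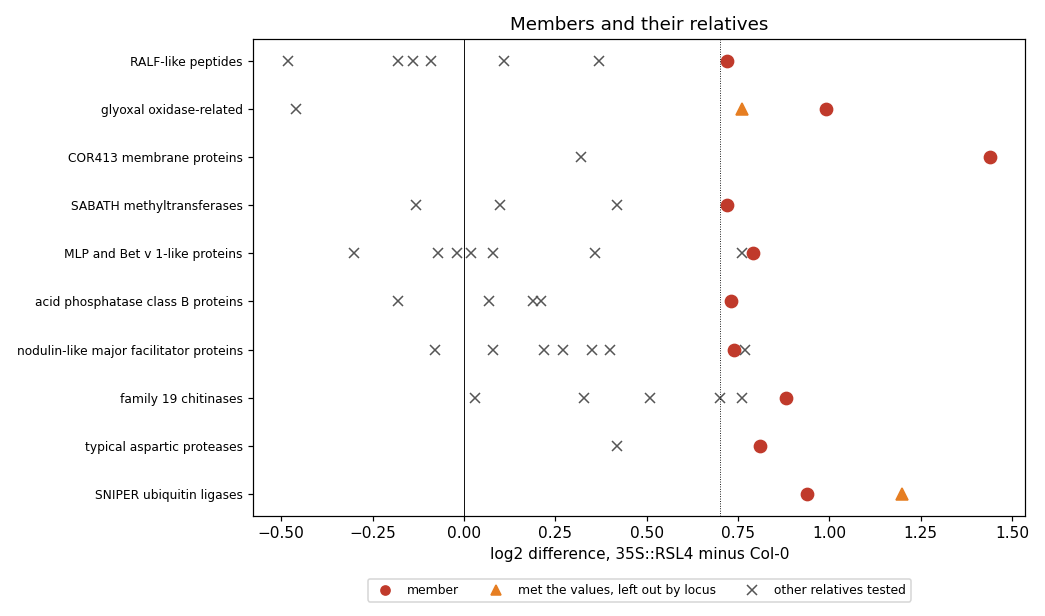
Log2 difference of 35S::RSL4 minus Col-0 for the tested members of 10 gene families, 1 family a row. Circles are members of the group, triangles are genes that met the numeric conditions and were left out by locus, and crosses are other relatives. The dotted line is at 0.7, and most crosses lie left of it, with chitinases, AT1G14960 and AT2G39210 nearest to or past it.

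The pathway lists gave few genes to set beside the members. The annotation used here gave 17 of the 175 list entries a single-gene probe set, and 11 of these were tested. None of the 17 was a member. The other entries could not be read, and an unlisted member may be one of them. Of the 11, 1 was higher and 1, LHCB4.1, was lower. LHCB4.1, a light-harvesting protein, had 129 and 120.5 in 35S::RSL4, 137 and 119.8 in rsl4-1, and 219 and 188 in Col-0, a log2 difference of 35S::RSL4 minus Col-0 of -0.70 (limma adjusted p = 0.0093). That call ended without 35S::RSL4 replicate 2 or Col-0 replicate 1 (adjusted p = 0.07 and 0.16). The gene that was higher was AT3G13610, which encodes the hydroxylase F6'H1 of coumarin synthesis in iron-starved roots. It had 698 and 651 in 35S::RSL4, 578 and 463 in rsl4-1, and 375 and 436 in Col-0, a log2 difference of 35S::RSL4 minus Col-0 of 0.74 (SE 0.14, limma adjusted p = 0.0046). It met the other conditions, but its rsl4-1 arrays were 0.35 above Col-0, outside the window. The call ended without Col-0 replicate 1 (adjusted p = 0.091).

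Of the root hair growth list, 2 of 38 genes had a single-gene probe set in the annotation that was tested. SCN1, a regulator of ROP GTPases that confines hair initiation to one site, had 422 and 411.5 in 35S::RSL4, 353.5 and 411 in rsl4-1, and 366 and 379.7 in Col-0 (log2 difference 0.16, limma adjusted p = 0.49). CSLD2, a cellulose synthase-like gene needed for hair growth, had a log2 difference of -0.03 (limma adjusted p = 0.91). Of the auxin response list 3 of 12 were tested and none was called, with a median log2 difference of 0.18. The reference genes TIP41 and GAPC2 had log2 differences of -0.12 and 0.06, and neither was called.

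The 15 members with 1 gene lay on all 5 chromosomes, with 5, 1, 1, 4 and 4 on chromosomes 1 to 5. Tested loci not left out by name were 20%, 15.9%, 21.2%, 16.4% and 26.6% on the same chromosomes. None of these 15 were neighbours, and the closest pair, AT1G75620 and AT1G78070, was 323 annotated loci apart. The 17 unlisted members and the 2 probe sets with 2 genes were given no position. The median gene length of the 15 members with 1 gene was 1933 bases, against 2351 bases over 6795 tested loci not left out by name.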

How the data were processed

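Root RNA was measured on 6 ATH1 arrays, 2 per genotype. Each deposited value is a linear intensity from the authors, for which the submitters' processing notes name MAS5 and GCOS. Their versions are not given in the sources used here. That scaling was kept, and the 64 control probe sets were left out. MAS5 is noisy for dim probe sets, and a change in total RNA would be scaled away. GEO's platform annotation pairs 13513 of 22746 probe sets with a single gene and 503 with several, while 8730 were unlisted. Of the first, 13436 were matched to RefSeq (TAIR10.1) by gene number and 72 by symbol.

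The fit used limma 3.58.1 (R 4.3.3) on log2 signals (all 6 arrays, eBayes with an intensity trend, two-sided, Benjamini-Hochberg adjustment over the 14170 probe sets above the 40th percentile on at least 2 arrays). The fit was tested on simulated data. The number of arrays limits the precision. Folds are 2 to the power of the log2 difference. Where both arrays of a genotype were below that percentile, a fold is a bound against the higher of the percentile and the signal.

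Members, families and lists were chosen with earlier results of these data known. Named were members with 1 gene (in full here, as were the 2 probe sets with 2 genes), the 3 probe sets on each side of the 0.7 threshold, called list genes and, added after the values were seen, relatives of members, uncalled list genes and 2 unlisted probe sets. Roles are background knowledge. Families were listed by locus, apart from the RALF-like peptides, which were taken by symbol. Alternatives were other scalings, filters, variance models and thresholds, a replicate block, and leaving out each array. No sequence table was used.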

Additional observations from a re-analysis of the deposited data

How the results depend on the processing

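The choice of members depends on the scaling and on single arrays. Against 34 members, median centring gave 62, of which 28 were among the 34, while quantile normalization gave 42 with 24 of them. A difference of at least 1 gave 3 members, a window of 0.15 for rsl4-1 gave 17, a window of 0.5 gave 91, and a minimum signal of 80 gave 22. Leaving out 1 array gave 33 to 65 members, and the 34 kept 21 (without Col-0 replicate 1) to 29 (without rsl4-1 replicate 1) of their number. Over the 2 scalings and the 6 arrays left out, 5 members met the numeric conditions every time, and 13 did so in 5 or fewer of the 8 settings. The members' median difference from Col-0 was 0.82 to 0.93 over those 8 settings. Calls of higher signal numbered 480 against Col-0 and 452 against rsl4-1. Against Col-0 they became 889 with median centring, 230 with no filter and 282 with no intensity trend, and against rsl4-1 301 with no filter. Leaving out 1 array gave 126 to 423 and 247 to 392. Of the members, 13 to 28 were then called against Col-0 and 12 to 24 against rsl4-1, and of the tested list genes 0 to 2. The causes were not tested. The replicate numbers only name the samples: replicate differences correlated at -0.0849, 0.118 and -0.189 between genotypes, and with the replicate block 444 probe sets and 31 members were called higher than Col-0. The SE of a member's log2 difference reached 0.33, which limits what 2 arrays a genotype can separate.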
